A study of Rattus norvegicus with 18 samples.

Results

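Liver RNA from Sprague-Dawley rats given diethylnitrosamine for 18 weeks was set against normal liver of the same strain. The comparison was defined by the sample titles and took the 3 arrays of the 18-week group and the 3 arrays of normal liver, taken at 0 h, which are 6 of the 18 arrays of a time course. Expression of all probe sets of an Affymetrix rat whole-genome array was compared, and the groups at 16 and 12 weeks (3 arrays each) were used to show which differences were already present. Every group was Sprague-Dawley liver from the middle of the right lobe, and every label gives an age of 12 weeks. Rats treated for 18 weeks cannot have been 12 weeks old at sampling, so the age at sampling is not given. The only untreated liver was that taken at 0 h, so weeks of treatment and age cannot be told apart. The labels used here state no sex, dose or route, and do not say whether the piece of lobe held tumour nodules. The labels name the 3 arrays of a group technical replicates. All p-values and SDs therefore measure the spread between arrays, and nothing here measures the spread between rats.

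Diethylnitrosamine is a procarcinogen. Cytochrome P450 enzymes of the hepatocyte convert it to a reactive form that alkylates DNA, and long exposure in rodents leads through cell death, regeneration and scarring to foci of altered hepatocytes and to tumours. Such foci are classically recognised in the rat by the placental form of glutathione transferase and by other enzymes of the antioxidant response, which is switched on by the transcription factor NRF2. Normal hepatocytes, in contrast, are marked by abundant plasma proteins, P450 enzymes and enzymes of sterol, bile acid and amino acid metabolism.

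Array signals are on the scale deposited by the authors, and changes are differences of log2(signal + 16) ± SE from limma, 18 weeks minus the group it is set against. A gene was called when its Benjamini-Hochberg adjusted p was under 0.05 and its change at least 2-fold; "rose" and "fell" mean called, and "did not pass" means that either criterion was missed. A pair in brackets such as "a against b" gives mean signals over 3 arrays, 18 weeks against normal liver unless another time is named, and a signed or single number after a gene is its log2 change. Where one group lay below a signal of 94.4, the level under which 40 percent of probe sets fall, the size of the change depends on the added 16 and is no exact fold. Arrays of the 18-week group correlated with each other over genes at r = 0.983 to 0.987 and with normal arrays at 0.927 to 0.931 (genes are not independent replicates). Median signals per array were 123 to 130 in normal liver, 165 to 174 at 12 weeks, 171 to 188 at 16 weeks and 140 to 154 at 18 weeks. The summed signals were 2.33e+07 to 2.38e+07 at 18 weeks, against 2.55e+07 to 2.64e+07 in normal liver. The Gapdh 3'/5' ratio, which increases with shortened transcripts, was 1.32 ± 0.0134 at 18 weeks and 1.12 ± 0.0599 in normal liver (n = 3 arrays, two-sided exact permutation p = 0.1, the smallest that 3 against 3 arrays allow). The beta-actin 3'/5' ratio was 2.29 ± 0.0951 at 18 weeks and 2.36 ± 0.305 in normal liver (exact permutation p = 0.9). The part of transcript length in the results below was not tested.

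The 18-week liver differed from normal liver in 1944 of 13891 named genes (14% called), of which 1371 rose (9.87% of all genes) and 573 fell (4.12%). Counted over all 31042 probe sets, 11.4% were called. Of the named genes, 344 rose and 116 fell at least 4-fold. The excess of rising genes depends on the scaling between arrays. With every array centred on its median, the share of rising genes among those called, 70.5% as deposited, becomes 52.9%, and the median change of all genes, 0.09 as deposited, becomes -0.10. With quantile normalization the share is 65% and the median change 0.01. Array signals of a whole lobe sum over its cells, so fewer cells of a type and less RNA per cell cannot be told apart in any of these values.

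Enzymes that detoxify aldehydes and conjugate electrophiles were among the genes that rose most. Akr1b8, an aldo-keto reductase, had signals of 23345, 22935 and 24704 at 18 weeks, against 207, 133 and 193 in normal liver, and changed by 6.95 ± 0.11 (adjusted p = 1.65e-14). Aldh3a1, an aldehyde dehydrogenase of tumour cells and cornea, had 5003, 4893 and 4661 at 18 weeks, against 45.3, 22.3 and 9.89 in normal liver (6.95 ± 0.22, adjusted p = 9.57e-12). Gstp1, the placental glutathione transferase, had 24233, 22842 and 25435 at 18 weeks, against 996, 1069 and 1142 in normal liver (4.48 ± 0.07, adjusted p = 9.29e-15). For all 3 genes the lowest 18-week array lay far above the highest normal array. Separate arrays were a condition of this ranking, and the arrays of both groups did not overlap for 55.2% of all genes. In normal liver Aldh3a1 was near the bottom of the signal range, Akr1b8 near the array median and Gstp1 well above it.

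Several of the steepest rises were in genes best known from other tissues. Bex1, a small adaptor protein of neurons, had signals of 4628, 4359.6 and 4059 at 18 weeks, against 70.5, 7.84 and 31.5 in normal liver (6.56 ± 0.32). Pcp4, a calmodulin-binding peptide of Purkinje cells, had 2436, 2449 and 2596 at 18 weeks, against 21.7, 8.62 and 7.19 in normal liver (6.49 ± 0.22). Nefl, the light neurofilament chain, averaged 883 ± 19.9 at 18 weeks and 24.2 ± 22.0 in normal liver (SD, n = 3 arrays), and its other probe set had 458 against 29.1. On the brightest probe set of each, none of the normal arrays reached 100 for these 3 genes. The other Bex1 probe sets changed less, by 1.35 (284 against 102) and by 0.46 (87.5 against 59.9, did not pass). Ddit4l, a stress-induced inhibitor of mTOR signalling, had 2298, 2229.7 and 2393 at 18 weeks, against 10.1, 54.0 and 9.88 in normal liver (adjusted p = 4.20e-10).

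The same ranking held Defb1, an epithelial antimicrobial peptide (3802 against 65.1, change 5.80), and Abcc3, which exports bile acids and glucuronides across the basolateral membrane (1267 against 23.4, change 5.13). It also held the tubulin Tubb6 (3864 against 121), the retinol-binding protein Rbp7 (1613 against 48.9), Mmd (1464 against 43.3), Epdr1 (1281 against 41.8) and Dnaaf1, a dynein assembly factor listed in the workbook as Lrrc50 (1541 against 67.1, mean signals at 18 weeks against normal liver). Another Tubb6 probe set, dim in both groups, had 47.7 against 44.9 (0.07) and did not pass. The mu-class transferase Gstm4 completed the 15 (1432 against 64.6, change 4.37). Close relatives in this family and in the P450, sulfotransferase and RT1 families can share probe hybridisation, so the split of signal between them is uncertain.

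The 2 steepest falls were in products made in bulk by hepatocytes of the male rat. Obp3, a gene of the alpha-2u globulin family of male rat liver, had signals of 98.3, 90.3 and 57.7 at 18 weeks, against 12790, 13876 and 12323 in normal liver (-7.08 ± 0.13, adjusted p = 6.28e-14). Cyp2c11, the main male-specific P450 of rat liver (listed in the workbook as Cyp2c), had 144, 138 and 224 at 18 weeks, against 21083, 21170 and 19903 in normal liver (-6.84 ± 0.14, adjusted p = 1.16e-13). Both genes were among the brightest of normal liver and lay near the array median or below it at 18 weeks, and no array of one group came near the other. A1bg, a plasma glycoprotein, had 868, 826 and 880.4 at 18 weeks, against 26293, 26974 and 24289 in normal liver (-4.89 ± 0.12). Hao2, a peroxisomal hydroxyacid oxidase, had 565, 568 and 468 at 18 weeks, against 10728, 9462 and 10798 in normal liver (-4.24 ± 0.08).

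Car3, the cytosolic carbonic anhydrase of liver and muscle, averaged 2284 ± 70.2 at 18 weeks and 34179 ± 2841 in normal liver (change -3.89 ± 0.08), and a second probe set changed by -4.41. Cyp3a9 (915 against 13697), Gstp3 (692 against 11389), the vasopressin receptor Avpr1a (422 against 5954), Stac3 (119.8 against 1825), the NADPH oxidase Nox4 (3.18 against 262) and the gene the workbook calls Akr1c6, now Akr1c1 (148 against 4198), all given as mean signals at 18 weeks against normal liver, fell as well. The probe sets of Atp5if1, an inhibitor of the ATP synthase, and of Dhrs7 disagreed, so no direction can be given for either gene. The brightest probe set of Atp5if1 fell (1127 against 15399, change -3.77), while 3 others rose, one of them with 4570.3 against 1187. The Dhrs7 probe set with the highest mean over all arrays had 99.5 against 1964 (change -4.13), while another had 3359 against 2229 (change 0.59).

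**Figure D1:**
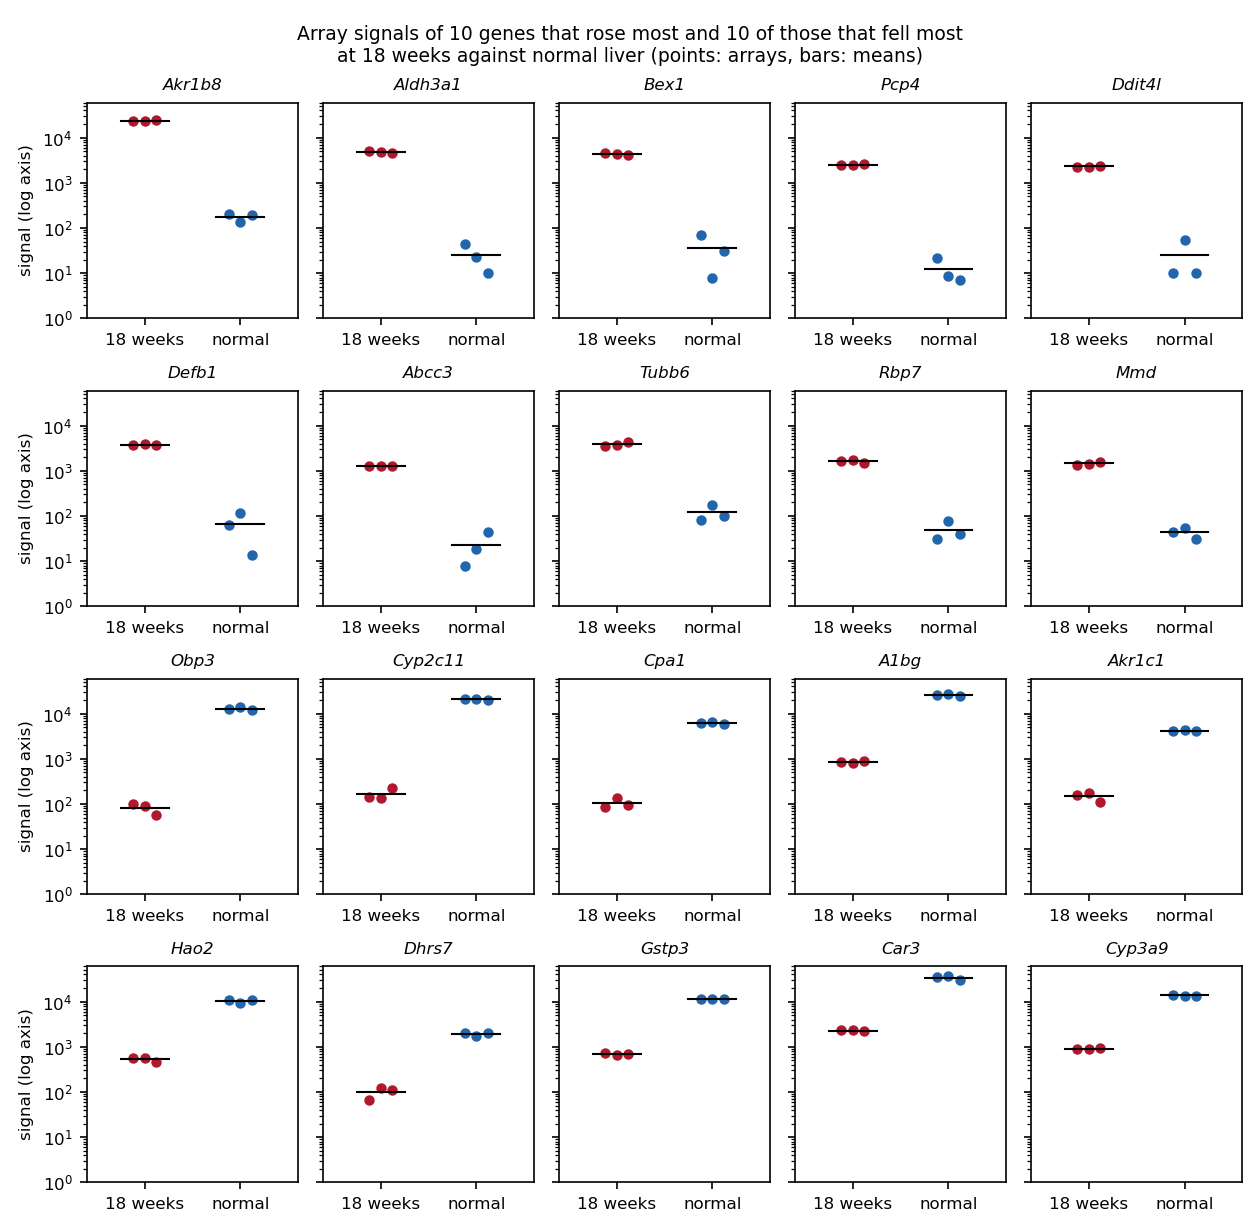
Signals on a log axis of the 3 arrays at 18 weeks (red, left) and of the 3 normal arrays (blue, right) for the 10 named genes with the largest rise (upper 2 rows) and 10 of those with the largest fall (lower 2 rows). Points are arrays and bars are means. Only genes whose 2 groups do not overlap were eligible, so the separation in the 20 panels follows from the choice of genes. Obp3 lies at 82.1 at 18 weeks against 12996 in normal liver. The Dhrs7 panel shows 1 of its probe sets, and another had 3359 at 18 weeks against 2229 in normal liver. The Bex1 and Tubb6 panels also show 1 probe set each, and other probe sets of these genes changed less.

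Some gene lists moved mostly one way and others both ways. Mitosis genes (30 of 35 rose), preneoplastic and tumour markers (14 of 18) and bile duct and progenitor markers (16 of 22) had the highest shares of rising members among lists of over 10 genes, beside 9.87% of all genes. Sex-biased liver genes (22 of 26 fell) and cholesterol synthesis genes (19 of 27) had the highest shares of falling members, beside 4.12% of all genes. Genes of the respiratory chain, the proteasome and the cytosolic ribosome had no called member in either direction as deposited. A list count is a description of its members, and no test of the list against other genes was made.

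**Figure D2:**
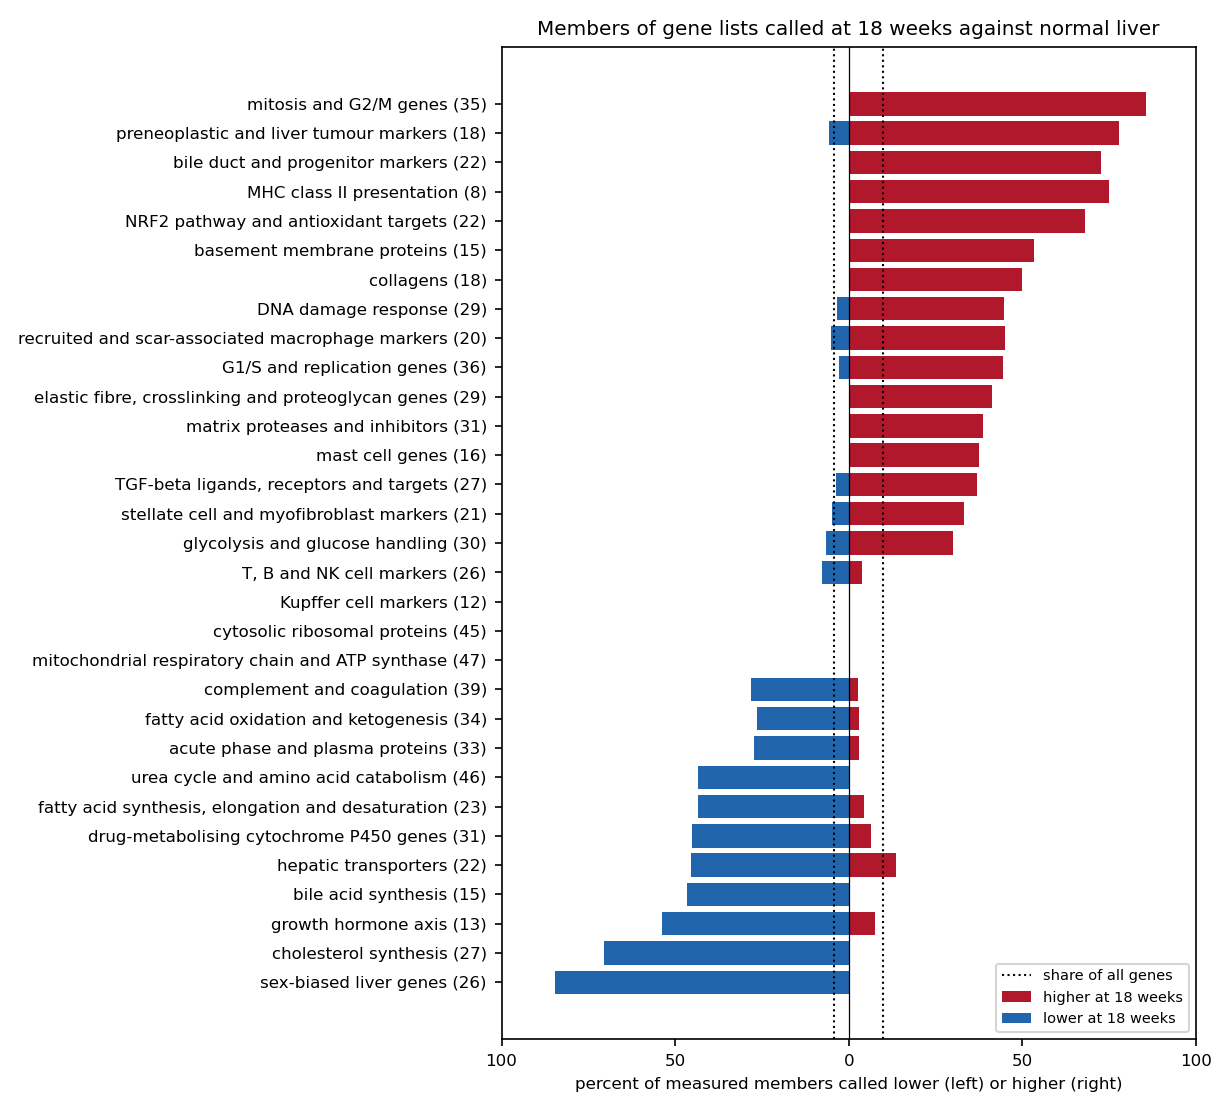
Percent of the measured members of 31 gene lists called higher (red, right) or lower (blue, left) at 18 weeks than in normal liver, with the number of measured members in brackets. Dotted lines mark the shares of all genes, 9.87% called higher and 4.12% called lower. The list labelled DNA damage response also holds p53 targets.

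In the NRF2 pathway most targets rose, and the regulators did not pass the test. Of 22 measured genes, 15 rose and 0 fell (median change 1.53, against 0.09 for all genes). Gpx2, a glutathione peroxidase of epithelia, had signals of 4792, 4688 and 4630.1 at 18 weeks, against 253, 205 and 225 in normal liver (4.28 ± 0.07, adjusted p = 3.57e-14). Slc7a11, the cystine importer that feeds glutathione synthesis, had 1712, 1792 and 1864 at 18 weeks, against 105, 49.2 and 95.5 in normal liver (4.24 ± 0.19). Both subunits of glutamate-cysteine ligase, the first step of that synthesis, rose, with Gclc at 13352 against 1445 (3.19 ± 0.06) and Gclm at 15697 against 2843 (2.47 ± 0.08). Srxn1, which repairs peroxiredoxins (7795 against 514), also rose. The classical target Nqo1 was already bright in normal liver and changed less (14748 against 6062, 1.28 ± 0.06). The targets Me1 (1989.6 against 998, 0.98) and Prdx1 (20709 against 20837, -0.01) did not pass. The transcription factor itself, Nfe2l2, had 5781 against 5049.9 (0.20 ± 0.06), and its repressor Keap1 1169 against 919 (0.35 ± 0.08).

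Promoter windows of 2 of these genes are shown because they hold the core letters of the antioxidant response element, TGACNNNGC, which is where NRF2 is known to bind. The windows come from RefSeq (build GRCr8) and span the annotated start, 5′ to 3′ on the gene's strand, with the match on either strand in capitals. Gpx2 lies at chr6:101229984-101230283, minus strand, and Gclm at chr2:213031885-213032184, plus strand.
Gpx2: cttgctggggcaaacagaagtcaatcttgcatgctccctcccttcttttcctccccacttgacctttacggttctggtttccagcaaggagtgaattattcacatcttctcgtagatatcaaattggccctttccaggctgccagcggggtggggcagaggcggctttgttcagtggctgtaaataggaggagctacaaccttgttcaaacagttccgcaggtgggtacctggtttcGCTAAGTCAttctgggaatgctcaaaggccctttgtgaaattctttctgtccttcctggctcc
Gclm: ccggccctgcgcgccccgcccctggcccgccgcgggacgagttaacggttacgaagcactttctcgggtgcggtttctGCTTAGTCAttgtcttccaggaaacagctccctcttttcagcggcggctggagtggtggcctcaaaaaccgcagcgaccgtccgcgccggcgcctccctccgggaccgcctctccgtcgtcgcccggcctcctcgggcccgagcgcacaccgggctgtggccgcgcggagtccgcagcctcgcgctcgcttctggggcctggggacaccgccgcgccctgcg
Of 19 measured list members with a window, 6 held the letters (Nfe2l2, Gclm, Gpx2, Me1, Ugdh and Prdx1), beside 12.2% of all 27457 windows and 14.4% of those of the 10370 measured genes with one. Among the 12 of them that rose, 3 held them. A match of letters is a description and not a shown binding site.

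The enzyme families around these targets did not move as blocks. Among glutathione transferases, 5 of 16 rose, namely Gstp1, Gstm4, Gstm5 (1.87), Mgst2 (1.18) and Gstt3 (1.14), of which Mgst2 and Gstt3 fell short of 2-fold with median centring, while Gstm3 fell (478 against 2298, -2.23). The abundant alpha and mu forms Gsta3 (0.29) and Gstm1 (0.73) did not pass the fold threshold. Among aldo-keto reductases, 4 rose and 4 fell of 13, with the aflatoxin aldehyde reductase Akr7a3 at 20806, 19426 and 20923 at 18 weeks, against 1234, 1170.2 and 1286 in normal liver (4.03 ± 0.07) and Akr1b7 at 2458 against 14352 (-2.54 ± 0.06). Of 16 aldehyde dehydrogenases 5 rose, including the retinal-oxidising Aldh1a1 (18357 against 4232, 2.11), and the mitochondrial Aldh1b1 fell (209 against 510.1, -1.24).

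Markers of preneoplastic foci and liver tumours rose in 14 of 18 cases. Beside the enzymes above, Ggt1, the gamma-glutamyl transferase of rat foci and bile ducts, had signals of 1691, 1749 and 1950.3 at 18 weeks, against 133, 162 and 109 in normal liver (3.60 ± 0.15). Gpc3, a membrane proteoglycan of fetal liver and hepatocellular carcinoma, had 471, 551 and 495 at 18 weeks, against 14.3, 15.4 and 32.1 in normal liver (3.86 ± 0.14). Igf2, a fetal growth factor, averaged 454 against 69.4 on its brightest probe set (2.49 ± 0.44), and its call ended with the mean of its probe sets (0.59). Afp, alpha-fetoprotein, had 1588, 1740.3 and 1858 at 18 weeks, against 899, 867 and 923 in normal liver, which separated the groups but stayed under the 2-fold threshold (0.93 ± 0.07, or 1.10 from the ratios in the authors' deposited table). Lcn2, an iron-binding acute phase protein, was the 1 member that fell (209, 221 and 225 at 18 weeks, against 542, 501 and 526 in normal liver, -1.20 ± 0.13).

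Cholangiocyte and progenitor markers rose in 16 of 22 cases and fell in 0 (median 2.02). The duct cytokeratin Krt19 had signals of 1308, 1314 and 1444 at 18 weeks, against 156, 106 and 114 in normal liver (3.29 ± 0.15, adjusted p = 3.45e-10). Krt7 (229.8 against 6.44), the adhesion molecule Epcam (5311 against 1078), the chloride channel Cftr (294 against 42.6), the claudins Cldn7 (312 against 6.81) and Cldn4 (231 against 23.1), and Cd24 (1648 against 93.8) rose with it. Sox4, a transcription factor of ductal and progenitor cells, had 3936, 3748 and 4132 at 18 weeks, against 198, 201 and 213 in normal liver (4.17 ± 0.06), and 4 of its 5 other probe sets rose as well. Sox9, a defining duct factor, was near 0 on its probe set in both groups (2.53 against 5.15). The Krt8 and Krt18 pair of simple epithelia, made by hepatocytes and ducts, also rose (1.96 and 1.19).

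Mitotic genes rose together. Of 35 measured, 30 rose and 0 fell (median 1.58). Cdk1, the kinase that drives entry into mitosis, had signals of 683, 744 and 693 at 18 weeks, against 128, 136 and 86.8 in normal liver (2.46 ± 0.12, adjusted p = 1.14e-09). Ccna2, its cyclin partner in S and G2 phase, had 624, 639 and 487 at 18 weeks, against 67.0, 56.1 and 62.9 in normal liver (2.93 ± 0.14). Mki67, the proliferation antigen Ki-67, had 526, 520.2 and 472 at 18 weeks, against 115, 105 and 99.7 in normal liver (2.09 ± 0.08). The groups were separate for all 3. Spindle checkpoint and kinetochore genes (Ttk 2.50, Bub1 1.61, Mad2l1 1.07), kinesins (Kif2c 2.48, Kif23 2.17, Kif20a 1.25), Aurora kinases (Aurka 1.96, Aurkb 1.55) and the cytokinesis genes Ect2 (2.44), Prc1 (2.09) and Racgap1 (2.30) all passed. Foxm1, the transcription factor of this programme, averaged 129 against 70.7 and missed the fold threshold (0.76 ± 0.15), as did Ccnb2 (0.86 ± 0.11).

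Promoter windows of 3 mitotic genes are shown because cell cycle genes of this class are known for pairing CCAAT boxes with the cell cycle homology region, searched here as the letters TTTGAA. Matches on either strand are in capitals (a match on the other strand reads TTCAAA or ATTGG), and no 2 matches overlapped. In build GRCr8, Cdk1 lies at chr20:19265043-19265342, plus strand, Ttk at chr8:93634389-93634688, plus strand and Ect2 at chr2:111966577-111966876, minus strand.
Cdk1: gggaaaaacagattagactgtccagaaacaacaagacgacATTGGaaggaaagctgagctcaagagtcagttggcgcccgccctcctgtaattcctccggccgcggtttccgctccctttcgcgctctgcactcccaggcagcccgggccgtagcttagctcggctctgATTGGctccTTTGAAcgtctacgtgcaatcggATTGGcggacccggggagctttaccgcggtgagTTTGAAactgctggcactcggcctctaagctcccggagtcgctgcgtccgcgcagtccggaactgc
Ttk: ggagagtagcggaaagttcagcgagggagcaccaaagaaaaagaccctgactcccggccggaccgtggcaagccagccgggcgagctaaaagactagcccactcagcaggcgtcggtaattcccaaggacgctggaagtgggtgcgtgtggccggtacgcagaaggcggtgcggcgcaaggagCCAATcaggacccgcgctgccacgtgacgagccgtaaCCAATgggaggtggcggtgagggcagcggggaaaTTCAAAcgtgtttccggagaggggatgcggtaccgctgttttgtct
Ect2: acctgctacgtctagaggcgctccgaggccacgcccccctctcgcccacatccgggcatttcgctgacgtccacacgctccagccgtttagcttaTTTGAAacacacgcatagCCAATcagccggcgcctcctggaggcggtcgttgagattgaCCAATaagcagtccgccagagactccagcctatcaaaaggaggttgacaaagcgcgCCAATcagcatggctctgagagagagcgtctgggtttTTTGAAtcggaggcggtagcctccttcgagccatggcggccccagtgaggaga
The letters TTTGAA were in 20 of 29 mitotic windows, beside 18.1% of all 27457 windows and 12.1% of those of the 10370 measured genes with one. CCAAT was in 23 of 29, beside 37.7% of all windows, and also in 15 of 19 cholesterol synthesis windows. The letters TCACNCCAC of a sterol regulatory element were in 0 of those 19, beside 1.13% of all windows. At so low a share, a count of 0 in 19 windows cannot tell these genes from others. Both mitotic motifs were present in 18 of 29, beside 7.25%. Of the 25 that rose, 15 held both.

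Genes of the G1/S transition and replication rose in 16 of 36 cases (median 0.83). Ccnd1, the growth-factor-responsive cyclin, had 2391, 2159.8 and 2323 at 18 weeks, against 514, 541 and 709 in normal liver (1.95 ± 0.11), Myc 1077, 984 and 906 at 18 weeks, against 164, 144 and 139 in normal liver (2.60 ± 0.14), and Rrm2, the regulated ribonucleotide reductase subunit, averaged 2403 against 364 (2.67 ± 0.07). The replicative helicase subunits Mcm2 to Mcm7 rose with the exception of Mcm4 (0.58), with Mcm3 highest at 2.05. The uracil glycosylase Ung was the 1 member that fell (687 against 2190.2, -1.65).

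The cell cycle inhibitor Cdkn1a rose beside these genes, with signals of 4835, 4846 and 4910.2 at 18 weeks, against 176, 296 and 260.4 in normal liver (4.26 ± 0.13, adjusted p = 5.60e-12). Of 29 genes in a list of p53 targets and DNA damage response genes 13 rose, including Ddit4l, Mdm2 (1892 against 627), Ccng1 (3183 against 1118), Phlda3 (1668 against 544), Bax (1120.4 against 479) and Mgmt, which removes alkyl groups from guanine (2770.3, 2745 and 2698 at 18 weeks, against 953, 909 and 912 in normal liver, 1.55 ± 0.06). The pro-apoptotic Bbc3 (-0.06 ± 0.07) and the death receptor Fas (0.33 ± 0.15) did not pass, and Sesn1 fell (-1.13, or -0.90 and no call from the ratios in the authors' deposited table). Cdkn2a, which encodes the p16 and ARF inhibitors, had 262, 274 and 294 at 18 weeks, against 3.68, 5.06 and 12.9 in normal liver (3.67 ± 0.27), with normal arrays at the bottom of the range.

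Matrix genes rose and none of these lists held a falling member. Collagen genes rose in 9 of 18 cases, basement membrane genes in 8 of 15, elastic fibre, crosslinking and proteoglycan genes in 12 of 29, and matrix proteases and inhibitors in 12 of 31. Col1a1, the main chain of scar collagen, had signals of 1052, 1237 and 1087 at 18 weeks, against 155, 139.9 and 158 in normal liver (2.77 ± 0.09, adjusted p = 1.93e-11). Col3a1 separated the groups but missed the fold threshold (6602 against 3534, 0.90 ± 0.05). Lama5, a laminin chain, had 556, 549 and 538 at 18 weeks, against 6.62, 17.4 and 16.4 in normal liver (4.28 ± 0.14, but 0.88 as the mean of its probe sets), and Loxl1, which crosslinks elastin, 409.9, 484 and 398 at 18 weeks, against 21.8, 23.9 and 26.6 in normal liver (3.47 ± 0.23). Adam8, a metalloprotease of leukocytes and tumour cells, averaged 1447 against 59.8 (4.30 ± 0.15), Mmp12, the macrophage elastase, 657 against 65.6 (3.15 ± 0.25), and the inhibitor Timp1 1124 against 304 (1.84 ± 0.12).

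Of 21 stellate cell and myofibroblast markers 7 rose, led by the contractile genes Tagln (826 against 89.9, 3.09 ± 0.34) and Acta2 (788, 805 and 859 at 18 weeks, against 190.0, 143 and 115 in normal liver, 2.36 ± 0.17), and 1 fell, the contractile gene Cnn1 (37.4 against 107, -1.38). The Cnn1 call was lost without 18-week array 1 (-0.83), with an added 64 (-0.79) and in a fit of the compared groups alone. Markers of the resting or whole stellate cell population did not pass: Lrat, which stores retinol, had -0.28 ± 0.07, Des 0.69 ± 0.16 and Pdgfrb 0.34 ± 0.27. In the TGF-beta list 10 of 27 rose and 1 fell, the activin subunit Inhbe (545 against 1999, -1.84). Tgfb1, the fibrogenic ligand, had 506, 536 and 359 at 18 weeks, against 11.8, 8.11 and 20.9 in normal liver (4.03 ± 0.16), and the target Ccn2, connective tissue growth factor, 2399.9, 2282 and 2145 at 18 weeks, against 187, 204 and 256 in normal liver (3.32 ± 0.12). The receptors Tgfbr1 (0.09) and Tgfbr2 (0.57) and Smad2, Smad3 and Smad4 (0.01, 0.28 and -0.05) did not pass.

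Immune gene lists differed from each other. MHC class II genes rose in 6 of 8 cases, with the invariant chain Cd74 at 21464, 20795 and 22744 at 18 weeks, against 4996, 4939.6 and 4927 in normal liver (2.12 ± 0.06) and the class II transactivator Ciita at 182 against 61.5 (1.52 ± 0.28). Markers of recruited and scar-associated macrophages rose in 9 of 20, among them Gpnmb (4612, 5027 and 4829.7 at 18 weeks, against 1167, 1018 and 994 in normal liver, 2.17 ± 0.07), Spp1 (2006 against 209), Lgals3 (6790 against 2483) and Cd9 (1197 against 196), and 1 fell, the endotoxin co-receptor Cd14 (1784 against 4832, -1.43). The defining marker Trem2 was dim (7.41, 82.8 and 41.3 at 18 weeks, against 9.59, 7.87 and 8.56 in normal liver), and its lowest 18-week array lay below the normal arrays. It was called (change 1.05, adjusted p = 0.0299), and the call was lost without any single array other than 18-week array 1 (0.57 to 1.08) and with median centring (0.86). Kupffer cell markers, the resident macrophages of liver, had no called member of 12, with Clec4f at 4459 against 7187 (-0.69 ± 0.06) and Cd163 at 539 against 770.2 (-0.50 ± 0.09).

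T, B and NK cell markers had 1 rising and 2 falling members of 26 (median 0.21, or 0.02 with median centring). The T cell receptor chains Cd3e (167 against 166) and Cd3g (282 against 223) did not pass, and the cytotoxic granule genes Gzma (121, 145 and 90.5 at 18 weeks, against 612, 532 and 559 in normal liver, -2.13 ± 0.14) and Prf1 (124 against 301, -1.17, or -0.95 and no call with an added 64) fell. Interferon response and class I processing genes had 2 rising and 2 falling members of 36, with Ifit1 the largest fall (83.0 against 455, -2.26) and Cxcl9 the largest rise (1748 against 655, 1.41). Chemokines and receptors rose in 11 of 36 cases, including the lymphoid chemokine Ccl21 (2332 against 280.4) and the neutrophil chemoattractant Cxcl6 (296 against 20.0). Cxcl12, a chemokine abundant in normal liver, fell on all 3 of its probe sets, the brightest with 1172, 1123 and 1096 at 18 weeks, against 11390, 11392 and 10741 in normal liver (-3.29 ± 0.06). Mast cell genes rose in 6 of 16 cases, with Mcpt2 at 609.8, 612 and 582 at 18 weeks, against 12.1, 8.17 and 72.8 in normal liver (3.98 ± 0.34). No neutrophil gene rose of 13, and S100a8 (-0.28 ± 0.09) and S100a9 (0.00 ± 0.06) did not pass.

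Drug-metabolising P450 genes fell in 14 of 31 cases and rose in 2 (median -0.86). With quantile normalization 8 fell. Cyp1a2, the pericentral enzyme that oxidises aromatic amines, had signals of 2307, 2008 and 2047 at 18 weeks, against 28349, 29461 and 26117 in normal liver (-3.71 ± 0.09, adjusted p = 3.62e-13). Cyp2e1, one of the enzymes known to activate diethylnitrosamine, had 14009, 13558 and 13673 at 18 weeks, against 35938, 38166 and 33940 in normal liver (-1.39 ± 0.06, or -0.95 and no call with quantile normalization). Cyp3a2 (4296 against 24296) and Cyp2d3 (2037 against 16115) fell further. Cyp1a1, the inducible partner of Cyp1a2, went the other way (887, 837 and 976 at 18 weeks, against 26.8, 49.8 and 48.1 in normal liver, 4.01 ± 0.14), as did Cyp4b1 (1978 against 400.3, 2.26). The electron donor Por (0.27 ± 0.08) and the receptors Ahr (-0.33 ± 0.13), Nr1i2 (-0.92 ± 0.07) and Nr1i3 (0.80 ± 0.06), which control P450 genes, did not pass, although 5 of 10 genes in the list of such receptors and regulators fell with median centring. Among sulfotransferases, Sult1e1, which inactivates oestrogen, fell most (2535, 2528 and 2559 at 18 weeks, against 31440, 33767 and 29167 in normal liver, -3.62 ± 0.07), while the glucuronosyltransferases Ugt2b15 (0.10) and Ugt2b35 (-0.01) did not pass.

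Bile acid synthesis genes fell in 7 of 15 cases (11 with median centring) and none rose. Cyp7a1, the rate-limiting enzyme, had 1943, 1689 and 1780.4 at 18 weeks, against 9244, 8439.8 and 9355 in normal liver (-2.31 ± 0.08), Cyp8b1, which sets the share of cholic acid, 3430.4 against 10762 (-1.64 ± 0.06), and the bile acid-CoA ligase Slc27a5 3208 against 21551 (-2.74 ± 0.05). Transporters moved in both directions. The basolateral bile acid importer Slc10a1 (5109.8, 5007 and 4718 at 18 weeks, against 25052, 26944 and 23789 in normal liver, -2.35 ± 0.06), the anion importers Slco1a4 (-2.67) and Slco1b2 (-1.67) and the canalicular bile salt pump Abcb11 (2892 against 10530, -1.86) fell. The basolateral exporters Abcc3, Abcc4 (705 against 152, 2.10) and Abcc1 (408 against 98.3, 1.95) rose, and the canalicular exporter Abcc2 had 0.02 ± 0.06. In total, 3 transporters rose and 10 fell of 22. The nuclear receptor genes Nr1h4 (-0.90 ± 0.13) and Nr0b2 (-0.84 ± 0.08) did not pass.

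Genes with a known sex bias in rat liver fell in 22 of 26 cases and none rose (median -2.42). The male-biased Obp3, Cyp2c11, Cyp3a2 and Cyp2a2 (-1.15) fell, and so did the female-biased Srd5a1, a steroid 5-alpha reductase (3657, 3433 and 3398 at 18 weeks, against 25054, 25376 and 23488 in normal liver, -2.81 ± 0.06), and Prlr, the prolactin receptor (950.0, 1000.1 and 1103 at 18 weeks, against 8205, 8271 and 8045 in normal liver, -2.99 ± 0.09, with 2 other probe sets also falling). Cyp2c12, the female P450 set against Cyp2c11 in textbooks, had 18668 against 33977 and did not pass (-0.86 ± 0.07). Normal liver held bright signals of both male- and female-biased genes. Genes of the growth hormone axis, which sets this bias, fell in 7 of 13 cases, with the receptor Ghr at 4043, 4017 and 3891 at 18 weeks, against 14374, 15767 and 14005 in normal liver (-1.88 ± 0.06), Socs2 at 178 against 563 (-1.57) and Onecut1, a hepatocyte transcription factor, at 753 against 5854 (-2.93). Bcl6 was the 1 member that rose (1.07, or 0.86 and no call with quantile normalization). Igf1, the circulating product of the axis, averaged 12581 against 29892 (-1.25 ± 0.06, or -0.86 with quantile normalization), whereas Igf2 and the binding proteins Igfbp2 (1.67), Igfbp4 (1.51), Igfbp5 (2.46, but 0.71 as the mean of its probe sets) and Igfbp7 (1.49) rose. Stat5a (0.01), Stat5b (-0.24) and Jak2 (0.11) did not pass.

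Cholesterol synthesis fell at most steps of the pathway, in 19 of 27 genes with none rising (median -1.30). Hmgcs1, an early enzyme of the pathway, had 7119.6, 6731 and 6748 at 18 weeks, against 23663, 25935 and 22734 in normal liver (-1.81 ± 0.08, adjusted p = 1.87e-10). Downstream, Idi1 (-2.02), Fdps (-1.51), Cyp51 (-2.04), Msmo1 (-2.17) and Tm7sf2 (1319.6 against 9331, -2.81) fell, while Sqle (-0.97 ± 0.09) and Dhcr7 (-0.14 ± 0.07) did not pass. The regulators of the pathway, Srebf2 (0.24 ± 0.09), Scap (-0.44 ± 0.09) and Insig1 (-0.86 ± 0.07), did not pass.

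**Figure D3:**
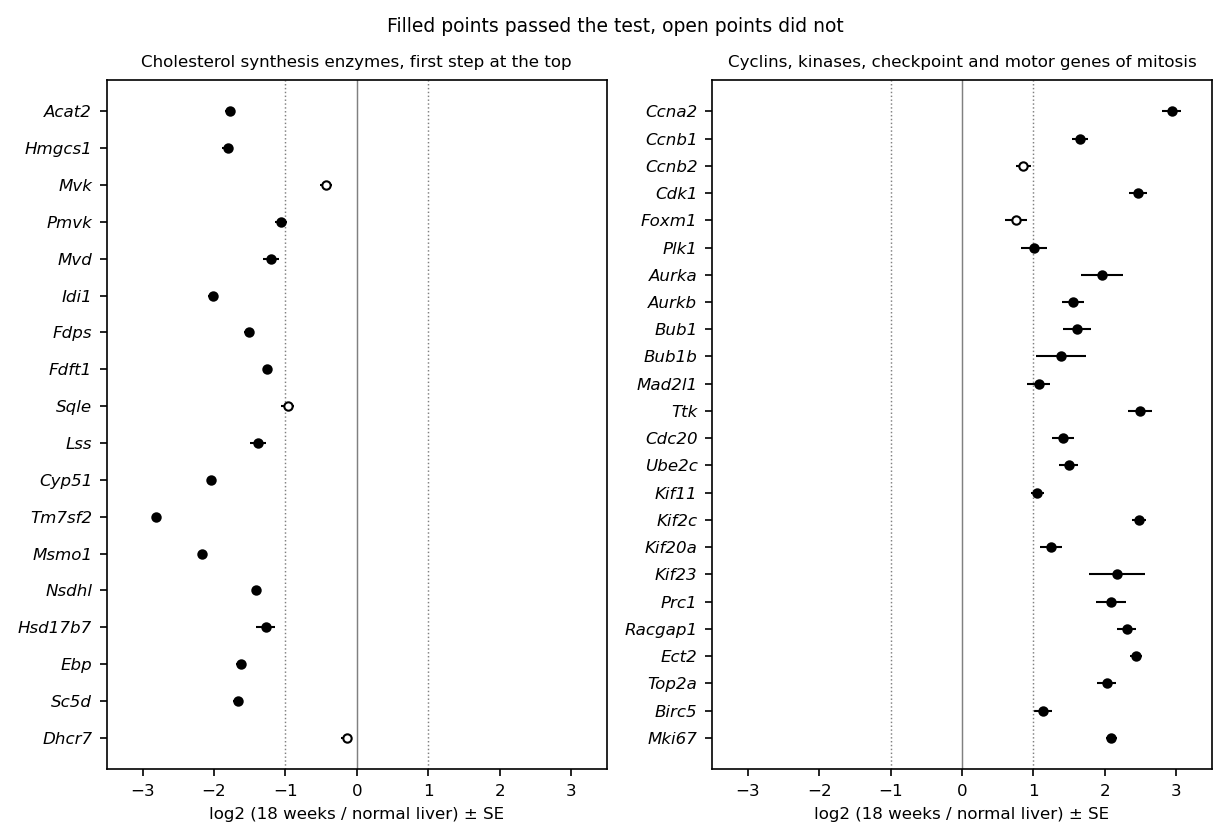
Changes at 18 weeks against normal liver (log2, ± SE from limma, n = 3 arrays per group) of 18 cholesterol synthesis enzymes in pathway order (left panel) and of 24 mitotic genes (right panel). Filled points passed the test, open points did not, and dotted lines mark a 2-fold change. Tm7sf2, at -2.81, lies farthest left in that panel, and Dhcr7, at -0.14, lies close to 0.

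Fatty acid synthesis genes fell in 10 of 23 cases, including Fasn (1716 against 4551, -1.39), the desaturases Fads2 (-2.18) and Scd (2210.5 against 8649, -1.96) and the lipogenic regulator Thrsp (3177, 3130 and 3116 at 18 weeks, against 18637, 18656 and 18247 in normal liver, -2.55 ± 0.05). Scd2, the desaturase form of tissues other than adult liver, rose on all of its probe sets, the brightest with 4387, 4557 and 4254 at 18 weeks, against 544, 553 and 499 in normal liver (3.01 ± 0.06). Fatty acid oxidation genes fell in 9 of 34, with the entry enzyme Cpt1a at 1620.2 against 7486 (-2.20 ± 0.09), and Acot1 rose (307, 359.7 and 300.0 at 18 weeks, against 3.05, 24.8 and 2.89 in normal liver, 3.78 ± 0.41). Among lipid-binding genes, Fabp4, a lipid carrier of macrophages and fat cells, had 1122, 1230.5 and 1202 at 18 weeks, against 9.76, 113 and 51.6 in normal liver (4.30 ± 0.37) and Fabp1, the hepatocyte form, 20830 against 52277 (-1.32). Of 9 adipocyte genes 3 rose, namely Fabp4, Cidea (2335 against 360.0, 2.64) and Lpl (1654 against 378, 2.09), whereas Adipoq (34.3 against 48.3), Lep (7.92 against 9.11) and Plin1 (15.7 against 8.59) were dim in both groups.

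Amino acid catabolism fell in 20 of 46 genes and the core urea cycle did not pass. Oat, the ornithine aminotransferase of pericentral hepatocytes, had 1733, 1456 and 1961 at 18 weeks, against 14635, 15063 and 15278 in normal liver (-3.12 ± 0.13), Gnmt, which consumes S-adenosylmethionine, 3227 against 16876 (-2.38), and Kynu, of tryptophan breakdown, 2157 against 9085 (-2.07). Cps1 (-0.41 ± 0.05), Otc (-0.87 ± 0.05), Ass1 (-0.32 ± 0.06) and Arg1 (-0.17 ± 0.06) stayed within 2-fold. Pericentral genes that depend on Wnt signalling fell in 7 of 13 cases, including glutamine synthetase, Glul (2773 against 6592, -1.25), and Slc1a2 (9.33 against 239), whereas the general Wnt targets Axin2 (-0.14) and Nkd1 (0.33) did not pass. Periportal genes, of the opposite zone, fell too, in 4 of 14 cases with 0 rising (median -0.65), among them Sds (-1.80) and Hal (-1.57). Of all genes 4.12% fell. Glycolysis genes rose in 9 of 30, with Pkm, the kinase form of growing tissue (1133 against 372, 1.57), Hk1 (1.75) and Aldoa (6172 against 1621, 1.92) up and Pklr, the hepatocyte form of pyruvate kinase, down (756 against 2558, -1.74).

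The main plasma proteins did not pass the test. Albumin, Alb, had 31452, 30435 and 32899 at 18 weeks, against 39718, 45152 and 37639 in normal liver (-0.37 ± 0.12), and transthyretin, Ttr, -0.52 ± 0.08. Neither passed the fold threshold, and both stayed bright in each group. Of 33 plasma protein genes 9 fell and 1 rose, the rising one being the protease inhibitor A2m, a marked acute phase protein of the rat (3360.1, 3278 and 3189.6 at 18 weeks, against 760.1, 744 and 714 in normal liver, 2.12 ± 0.06). Of 39 complement and coagulation genes 11 fell (6 with quantile normalization), with mannose-binding lectin Mbl2 the lowest (1218 against 6146, -2.32), and tissue factor F3 rose (183 against 37.1, 2.04). The 437 genes with a mean signal of at least 10000 in normal liver had a median change of -0.52 (106 fell, 1 rose), against 0.10 for the other 13454. Choosing genes by their normal signal favours lower values at 18 weeks, so this is a description only. Among control probe sets, dap averaged 3900 ± 184 at 18 weeks and 6876 ± 672 in normal liver, and cre 3.202e+04 ± 1.07e+03 at 18 weeks and 4.129e+04 ± 6.11e+03 in normal liver (n = 3 arrays, two-sided exact permutation p = 0.1 each, the smallest possible). The part of scaling or of signal saturation was not tested. The master regulator Hnf4a averaged 1099.8 against 2138 (-0.95 ± 0.08, or -1.14 and called with median centring) and did not pass, and Tat (-0.67 ± 0.08) and Apoa1 (0.17 ± 0.07) did not either.

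Several large complexes had no called member as deposited. None of 47 respiratory chain genes was called (median -0.22, or -0.40 with median centring and 0.03 with quantile normalization), none of 30 proteasome genes (median 0.02, or -0.17 and 0.15) and none of 45 ribosomal protein genes (median 0.17, or -0.02 and 0.48). The sign of all 3 medians changed with the scaling, and 1 respiratory chain gene fell with median centring and 1 ribosomal gene rose with quantile normalization. Gapdh (22648 against 20505, 0.14 ± 0.06) and Actb (18431 against 13942, 0.40 ± 0.05) did not pass.

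Exocrine pancreas genes gave mixed signals in normal liver. Cpa1, a pancreatic carboxypeptidase, had 85.4, 134 and 96.6 at 18 weeks, against 6212, 6538 and 6044 in normal liver (-5.71 ± 0.34). Cela1 (124 against 1024, -2.89) and the amylase Amy2a3 (5482 against 15969, -1.54) fell as well. Other defining pancreatic genes were dim in both groups: Prss1 had 54.6 against 49.0, Ctrb1 16.9 against 16.8, Pnlip 58.5 against 57.4 and Cel 9.49 against 12.8. Of the 18 genes of this list 4 fell and 2 rose, namely Ctrc (425 against 75.3) and the mast cell carboxypeptidase Cpa3 (498 against 201). Red cell genes fell in part, with Hbb at 11787 against 27019 (-1.19 ± 0.06, or -0.81 with quantile normalization).

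Against 16 weeks, the 18-week liver was called different in 270 of 13891 genes (1.94% called), 32 higher (0.23%) and 238 lower (1.71%). Over all probe sets, 3.44% were called. That split depends on the scaling, since 11.9% of called genes were higher as deposited, 52.5% with median centring and 27.8% with quantile normalization. The median change of all genes was -0.05 as deposited and 0.23 with median centring, and changes of groups are to be read against it. Of the 238 genes lower than at 16 weeks, 123 had a signal below 94.4 in at least one of the groups. The 16- and 18-week groups share their normal arrays, so their changes against normal liver are given side by side and not tested against each other.

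The largest difference between the 2 times was in Mx2, an interferon-induced GTPase. It had signals of 1422, 1459 and 1293 at 18 weeks, against 49.4, 44.4 and 62.0 at 16 weeks (4.38 ± 0.16, adjusted p = 1.09e-09), and 1407, 1610 and 1245 in normal liver, so that the 18-week and normal arrays overlapped (-0.02 ± 0.16 against normal liver). These values are from the brighter of its probe sets, and a second one, with 463 at 18 weeks against 533 in normal liver, changed by 0.09 against 16 weeks. Of 36 interferon response genes no other was called against 16 weeks. Several metabolic genes of the hepatocyte stood higher at 18 than at 16 weeks. Cyp7a1 had 1943, 1689 and 1780.4 at 18 weeks, against 661, 733 and 636 at 16 weeks (1.39 ± 0.08). The branched-chain acyl-CoA oxidase Acox2 averaged 3092 against 879 (1.80 ± 0.08), the carboxylesterase Ces1d 9002 against 3170.2 (0.49 and no call as the mean of its probe sets), and the sulfotransferases Sult1c2 and Sult1c2a changed by 2.11 ± 0.07 and 1.62 ± 0.21. The Kupffer cell lectin Clec4f averaged 4459 at 18 weeks and 1622 at 16 weeks (1.45 ± 0.06), the only 1 of 12 Kupffer cell markers called. Aldh3a1, Pcp4 and the cystine importer Slc7a11, all raised over normal liver, were higher again at 18 than at 16 weeks (1.86, 1.83 and 1.21).

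Several matrix and mast cell genes that stood above normal at 18 weeks were lower than at 16 weeks. Of 18 collagen genes 6 were lower (median -0.67, or -0.39 with median centring, under which 1 was called), among them Col1a1 (1052, 1237 and 1087 at 18 weeks, against 2314, 2539.5 and 2409 at 16 weeks, -1.10 ± 0.09, or -0.81 and no call with median centring). Elastic fibre, crosslinking and proteoglycan genes were lower in 6 of 29 cases, and in none with median centring (median -0.58, or -0.29). Lum averaged 334 against 741 (-1.11 ± 0.10, or -0.83 and no call with median centring). Mast cell genes were lower in 6 of 16 cases, with 5 called under median centring. The chymases Cma1 (153, 226 and 164 at 18 weeks, against 580.0, 619.7 and 636 at 16 weeks, -1.69 ± 0.45, or -1.59 and no call without 18-week array 1) and Mcpt2 (601 against 1846, -1.59 ± 0.34) and the carboxypeptidase Cpa3 (498 against 1365, -1.42 ± 0.11) were among them, and the arrays of the 2 times did not overlap for any of the 3 (43.4% of all genes did not). Chemokines were lower in 4 of 36 cases and in none with median centring.

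Lcn2 and RT1-N3, a nonclassical class I gene, were called above normal liver at 16 weeks and below it at 18 weeks. Lcn2 had 209, 221 and 225 at 18 weeks, against 2305, 2297 and 2172 at 16 weeks (-3.28 ± 0.13, adjusted p = 3.62e-09). For RT1-N3 the call against normal liver at 18 weeks ended with the mean of its probe sets (-0.59). Another RT1-N3 probe set had 234 against 172 in normal liver (0.39, did not pass) and changed by -0.30 against 16 weeks. The values that follow are from the brightest one. RT1-N3 had 108, 98.2 and 111 at 18 weeks, against 1318, 1346 and 1383 at 16 weeks (-3.49 ± 0.10), and RT1-CE2, another class I gene, 606, 581 and 643 at 18 weeks, against 4689.9, 4676 and 4592 at 16 weeks (-2.90 ± 0.11). Also lower than at 16 weeks were the inhibitory receptor Lilrb4 (95.2 against 730.0), the claudin Cldn6 (22.9 against 206), the imprinted RNA Meg3, listed in the workbook as RGD1566401 (192 against 938), Slit3 (75.9 against 390.1, a call lost with either other scaling and without any single array other than 18-week array 1), Aldh1b1 (209 against 1001), Mss51 (14.5 against 118) and the defensin RatNP-3b (17.3 against 180.4). Proliferation genes gave no call. Of 35 mitotic genes none was called in either direction (median -0.19, or 0.09 with median centring), with Cdk1 at 707 against 739 and Mki67 at 506 against 738 (18 against 16 weeks).

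Against 12 weeks, 138 genes were called (0.993%), 44 higher (0.317%) and 94 lower (0.677%), with 1.36% of all probe sets called, and here too the share of higher genes depended on the scaling, being 31.9% as deposited, 58.5% with median centring and 50% with quantile normalization. Clock genes led the falls. Of 17 clock genes 5 were lower and 3 higher than at 12 weeks, under median centring as well. The output factor Dbp had 218, 181 and 162 at 18 weeks, against 2313, 2243 and 2158 at 12 weeks (-3.48 ± 0.14), the repressor Nr1d1 174, 183 and 180.1 at 18 weeks, against 1769.7, 1754 and 1716 at 12 weeks (-3.18 ± 0.13) and Per3 19.5, 21.3 and 26.4 at 18 weeks, against 360.4, 248 and 307 at 12 weeks (-3.05 ± 0.34). Bmal1, which peaks opposite to these genes, had 438, 494 and 488 at 18 weeks, against 145, 139.7 and 228 at 12 weeks (1.42 ± 0.17), and Cry1 and Nfil3 were higher by 1.29 and 1.21. For each of these genes the arrays of the 2 times were separate, as for 35.3% of all genes. For Dbp, Nr1d1 and Per3 this was a condition of their choice. Against normal liver, 3 of 17 clock genes fell and 0 rose, beside 4.12% and 9.87% of all genes. They were Nr1d1 (-1.91), Dbp (-1.35) and Nr1d2 (-1.24). The labels state no hour of sampling for any group, and its part in the comparisons with normal liver, 16 weeks and 12 weeks was not tested.

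Other genes higher at 18 than at 12 weeks were Acot1 (322 against 25.2, 3.13 ± 0.41), the aldehyde dehydrogenase Aldh1a7 (5805 against 882, 2.70 ± 0.08), Prap1 (161 against 13.9) and the serpins Serpinb1a, an inhibitor of neutrophil proteases (9731, 9963 and 9675 at 18 weeks, against 2162, 2162 and 2232 at 12 weeks, 2.16 ± 0.07), and Serpinb9b (163 against 25.2, which lost its call in a fit of these 2 groups alone). Krt12, a keratin of the cornea, was higher at 18 weeks than in every other group given here, with 60.9, 73.5 and 80.2 in normal liver, 67.8, 89.1 and 70.3 at 12 weeks, 60.5, 43.4 and 97.4 at 16 weeks and 325, 387 and 445 at 18 weeks. Cyp2c11 was lower than at 12 weeks (169 against 682, -1.94 ± 0.14), as were Hao2 (533 against 2670.4, -2.29 ± 0.08) and Car3 (2284 against 5959.8, -1.38 ± 0.08). A1bg went the other way (868, 826 and 880.4 at 18 weeks, against 270.2, 349 and 293 at 12 weeks, 1.46 ± 0.12). Akr1b8 (23661 against 23507), Gstp1 (24170 against 26105) and Cdkn1a (4864 against 2984, mean signals at 18 against 12 weeks), which rose over normal liver, did not pass against 12 weeks.

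**Figure D4:**
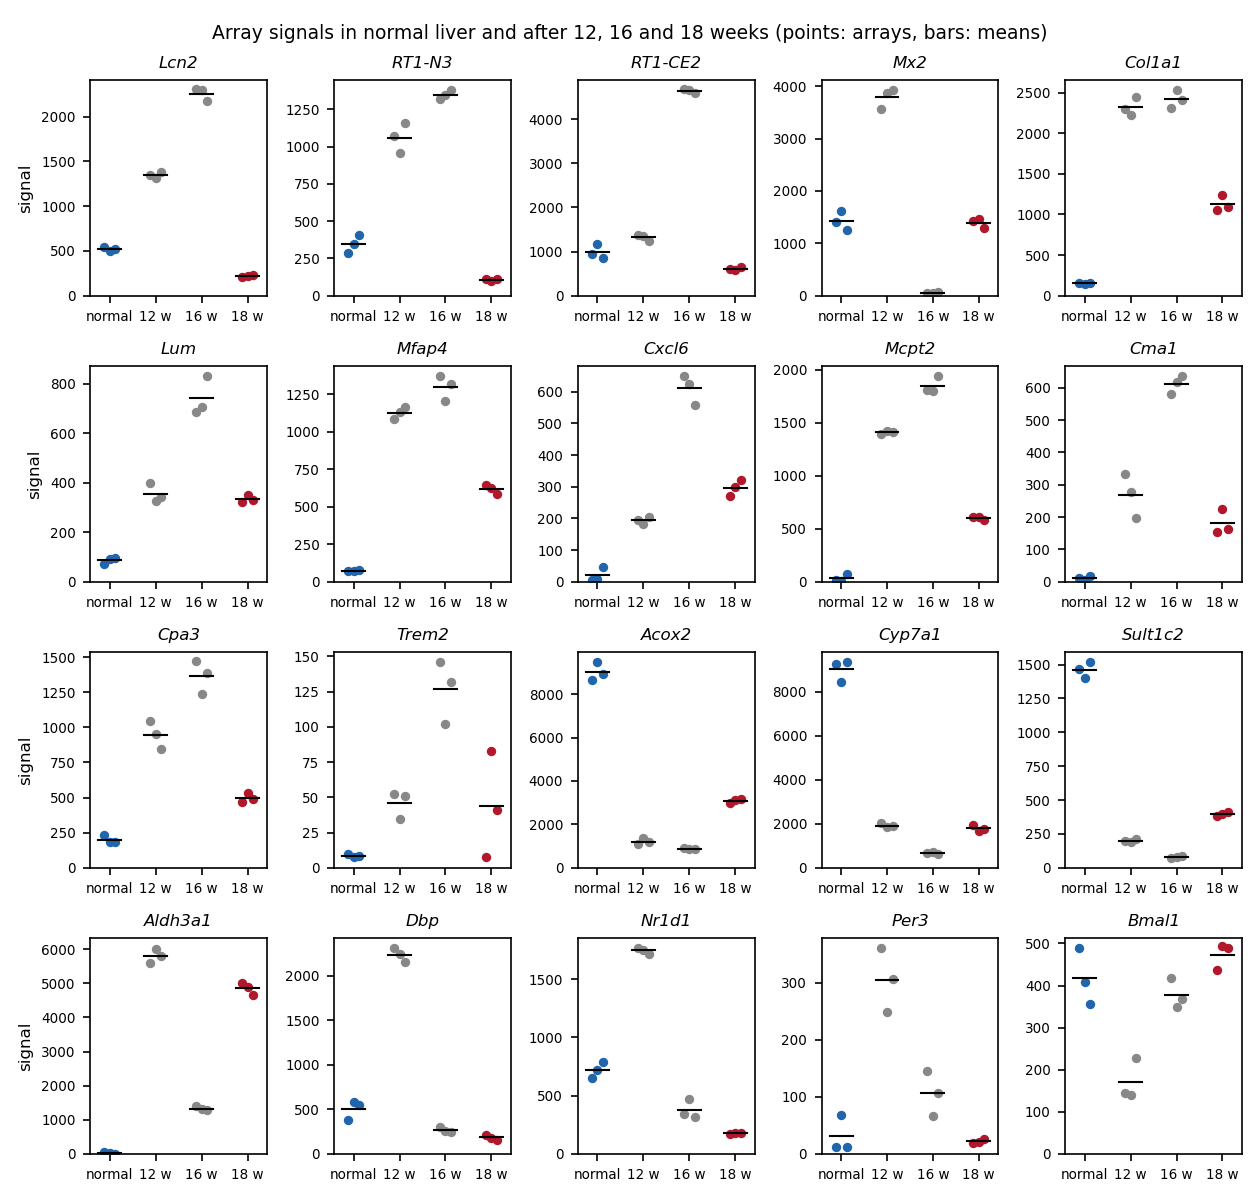
Signals on linear axes, each starting at 0, of the 3 arrays of normal liver (blue), 12 and 16 weeks (grey) and 18 weeks (red) for 20 named genes. Points are arrays and bars are means. Mx2, shown on 1 of its 2 probe sets, lies at 51.9 at 16 weeks between higher groups, and Dbp peaks at 12 weeks with 2238. RT1-N3 is also shown on 1 of its probe sets, and another changed by -0.30 at 18 against 16 weeks.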

How the data were processed

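Affymetrix signal intensities of 18 arrays, summarised per probe set with GCOS 2.0 and scaled between arrays by the authors, were taken as deposited, with the software named per the submitters' processing notes. No label or header states the scaling target or the background step, so both are unknown here. The authors' deposited workbook supplied gene symbols and log2 ratios rounded to 1 decimal, and the ratios served only as an alternative. Its 18 single-array columns were not used: those for normal liver did not correlate with the normal arrays of the value table (largest r 0.064), so the deposit holds conflicting normal values, and the value table was taken. Of 31099 probe sets, 57 controls were left out, and 19885 of the other 31042 name 1 gene (13891 genes, symbols updated through RefSeq tables).

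Groups came from the sample titles. log2(signal + 16) was fitted with limma 3.58.1 in R 4.3.3 over all 6 groups, two-sided, with Benjamini-Hochberg adjustment over 31042 probe sets. A gene was represented by its probe set with the highest mean over all arrays. Array number limits the precision. Named genes were the 15 highest and 15 lowest called, non-overlapping genes against normal liver, 10 and 10 against 16 weeks, 6 and 6 against 12 weeks, and up to 6 leading and 3 opposite members of each list. A set of 15 genes, Gstp1 and Alb among them, was named whatever their values. Further members named for their role (Aurka, Bax, Krt8, Fasn and Bmal1, for example) were chosen after their values were seen. Members and lists were chosen with earlier results of these data known. Control ratios were compared with an exact permutation test. Alternatives were quantile normalization, median centring, added constants of 1 and 64, a filter on low signals, averaging a gene's probe sets, every probe set, other fold thresholds, trended variance, the compared groups alone, a replicate block and leaving out each array. Some genes named by these rules are not reported here.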

Additional observations from a re-analysis of the deposited data

Results flagged for a closer look

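Both Lcn2 and RT1-N3 were called in opposite directions against the same normal arrays at the 2 latest times. Lcn2 changed by -1.20 at 18 weeks and 2.08 at 16 weeks, and the tested difference between 18 and 16 weeks was -3.278. RT1-N3 changed by -1.56 at 18 weeks and 1.92 at 16 weeks, and the tested difference was -3.487. Another RT1-N3 probe set changed by 0.39 at 18 weeks against normal liver (did not pass) and by -0.30 between 18 and 16 weeks.

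Among the 11157 probe sets with no single gene name, which enter no count of genes above, 566 rose and 347 fell at 18 weeks against normal liver (8.18% called). Against 16 weeks, 17 of them were higher and 633 lower.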

How the results depend on the processing

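The split between higher and lower genes was the result that depended most on the scaling. With median centring, 904 genes were lower than in normal liver, 179 differed from 16 weeks (94 higher, 85 lower) and, against 12 weeks, 86 were higher and 61 lower. With quantile normalization, 169 differed from 16 weeks (122 lower), and 61 were lower than at 12 weeks. With an added constant of 64, 108 differed from 16 weeks (21 higher, 87 lower) and 83 from 12 weeks (51 lower). With the filter on low signals, 171 differed from 16 weeks (145 lower), and 61 were lower than at 12 weeks. Counted over every probe set, 3546 differed from normal liver (2385 higher, 1161 lower), 1069 from 16 weeks (63 higher, 1006 lower) and 421 from 12 weeks (71 higher, 350 lower). With no fold threshold, 6523 differed from normal liver (4068 higher, 2455 lower), 3297 from 16 weeks (1643 higher, 1654 lower) and 1596 from 12 weeks (860 higher, 736 lower). With a 3-fold threshold, 782 differed from normal liver (574 higher, 208 lower), 48 from 16 weeks (9 higher, 39 lower) and 35 from 12 weeks (8 higher, 27 lower). The cause of these differences was not tested, apart from the thresholds and the number of probe sets, which follow from their construction. Leaving out one array gave 1881 to 1941 genes against normal liver (1329 to 1367 higher, 552 to 610 lower), 225 to 287 against 16 weeks (26 to 34 higher, 191 to 261 lower) and 112 to 150 against 12 weeks (38 to 47 higher, 67 to 108 lower). Deviations of same-numbered arrays of different groups correlated at -0.010 to 0.099, and those of differently numbered arrays at -0.112 to 0.068. Whether same-numbered arrays share more than a number is unknown here. With the replicate block 1939 genes differed from normal liver, 263 from 16 weeks and 134 from 12 weeks. Atp5if1 turned direction when its probe sets were averaged (0.20). Among values of single named genes under all alternatives, 6918 kept their side of the threshold, 235 lost it, 12 gained it and 1 reversed. Signals under 94.4 limit the size of any change in dim genes.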
